A study of Mus musculus with 12 samples.

Results

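A set of 10 mouse genes that detect foreign or misplaced nucleic acid, or pass that signal on, were followed across 12 bulk RNA libraries of 3T3 cells, a mouse fibroblast line. The genes were chosen by symbol as sensors and adaptors that nucleic acid carried by vesicles could trigger, and all 10 were found among the 32544 rows of the count table. They are the RNA helicases Ddx58 (RIG-I), Ifih1 (MDA5) and Dhx58 (LGP2), the endosomal receptor Tlr3, the nucleic-acid sensor Zbp1, the kinase Eif2ak2 (PKR), the adaptors Mavs and Tmem173 (STING), and the transcription factors Irf3 and Irf7. The study compared fibroblasts left untreated with fibroblasts that received extracellular vesicles (EVs), membrane-bound particles shed by cells, for 24 h. The EVs came from MDA-MB-468, an established human breast cancer line, in 3 forms: a control line (shCon), a line with CRIPTO knocked down (shCr) and a line made to overexpress CRIPTO (CrOE), a cell-surface protein of the EGF-CFC family. Each of the 4 groups held 3 libraries. Nothing in the labels says whether these came from separate cultures, so p-values measure only the spread between the libraries, which may be technical. The amount of EVs given, how they were isolated, and whether each donor line was a single clone are not given in the sources used here. The table labels 3 of its columns only by the name of the protein. These were taken as the CrOE libraries by elimination, and every CrOE value below rests on that step.

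RIG-I and MDA5 bind double-stranded RNA in the cytosol and signal through MAVS on the mitochondrial surface. TLR3 reads double-stranded RNA in endosomes, and STING responds to the cyclic dinucleotide that cGAS makes on DNA. These routes converge on kinases that activate IRF3 and IRF7, which switch on type I interferon genes. Interferon in turn raises transcription of most of the sensors and of Irf7, so in many cell types, fibroblasts included, their RNA levels move with interferon signalling as well as with their own stimulus. PKR is a sensor of another kind: on binding double-stranded RNA it phosphorylates the translation factor eIF2α and slows protein synthesis.

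Total estimated counts ranged from 25960054 to 37774020 per library, and mitochondrial genes took 0.495% to 1.70% of them. All 10 genes passed the low-count filter, which kept 14279 genes. Levels are given as CPM, counts scaled to a fixed library total, after TMM normalisation, and a difference was called where the quasi-likelihood test of edgeR gave an adjusted p under 0.05 (Benjamini-Hochberg over all genes tested). The fibroblast label was checked against 10 fibroblast markers: all 10 were above the floor of 3 counts in each group, and their summed level was 20133 to 21689 CPM in untreated cells. Markers of other lineages were mixed. Epcam was at 0 counts in all 12 libraries. Of the 8 epithelial markers, however, 4 were above the floor in at least 1 untreated library and 5 in at least 1 CrOE library. Ptprc was at 0 to 7 counts, but the macrophage-list genes Cd14 and Lyz2 were at 78.3 ± 7.87 and 46.9 ± 4.86 CPM in untreated cells (SD, n = 3). The CrOE libraries stood apart from the rest, with 73.7% of all genes called against untreated cells, compared with 38.1% for shCon and 37.3% for shCr EVs.

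The response to shCon EVs and that to CrOE EVs ran in opposite directions for most of these genes. After shCon EVs, 6 of the 10 rose (Ddx58, Ifih1, Dhx58, Tlr3, Zbp1 and Irf7), 1 fell (Tmem173) and 3 were not called (Mavs, Eif2ak2 and Irf3). Over all genes, 18.0% were called higher and 20.2% lower in that comparison. After shCr EVs the same 6 genes rose and Tmem173 fell, against 18.4% of all genes called higher and 18.8% lower. After CrOE EVs, 0 of the 10 rose and 8 fell, which were the 7 genes just named and Eif2ak2, against 36.7% of all genes called higher and 37.0% lower. Mavs and Irf3 were called in none of the 6 pairwise comparisons. The median log2 fold change of the 10 genes was 0.36 after shCon, 0.36 after shCr and -2.20 after CrOE EVs, where the medians over all genes were 0.01, 0.02 and 0.01. Library by library, 8 of the 10 genes did not overlap between shCon and untreated cells (7 above, 1 below), where 26.6% of all genes lay wholly above and 27.7% wholly below. For shCr EVs 6 did not overlap (5 above, 1 below), against 20.8% and 21.1% of all genes, and for CrOE EVs 8 (0 above, 8 below), against 38.8% and 38.8%. A test across the 4 groups together called 8 of the 10, and 81.3% of all genes.

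**Figure D1:**
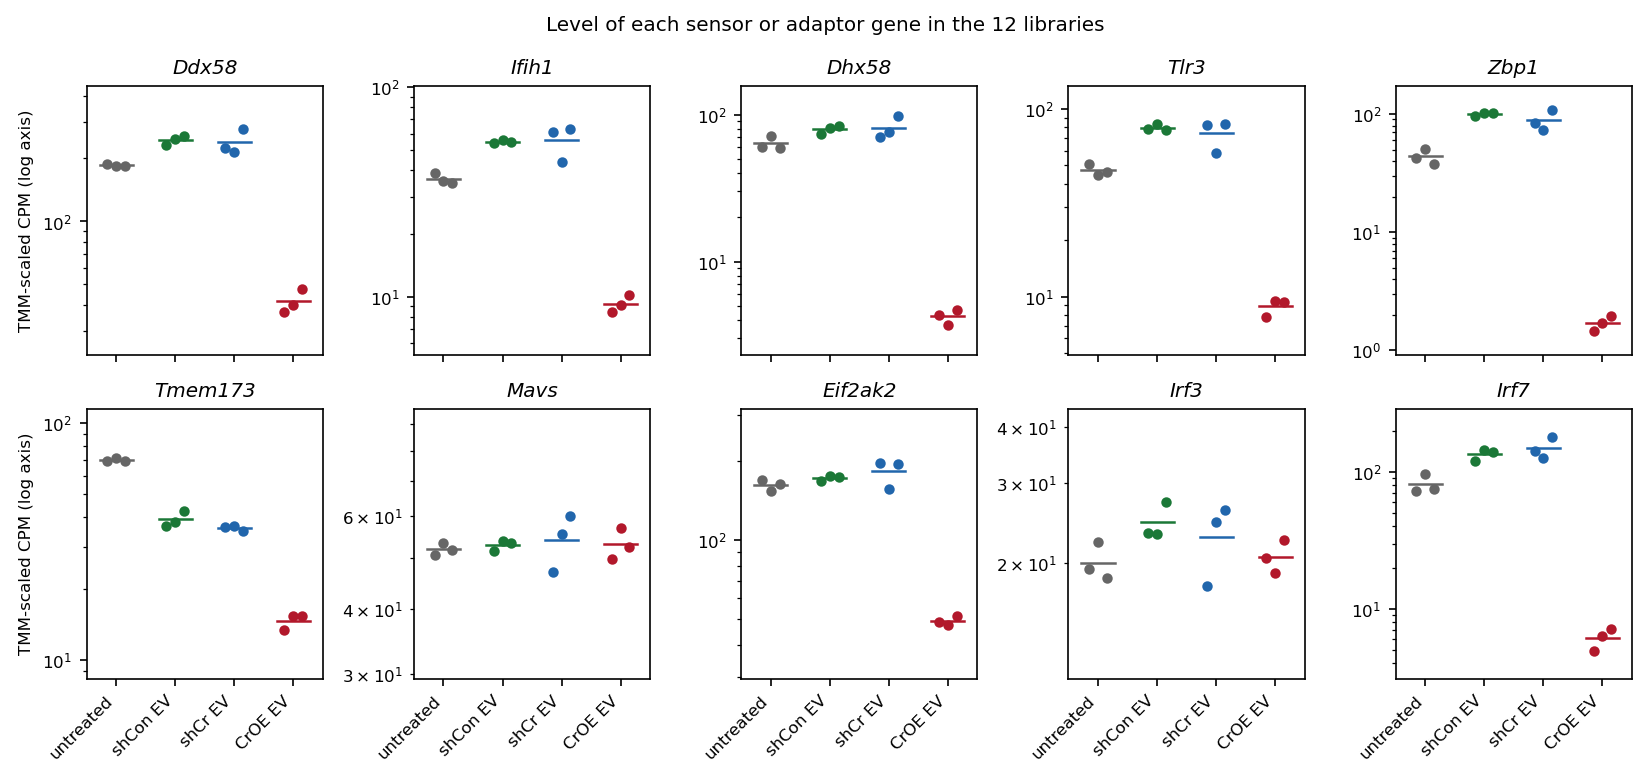
Level of each of the 10 genes in CPM (log axis, a panel per gene, scales differ) in the 12 libraries, grouped as untreated, shCon, shCr and CrOE EVs. Points are libraries and horizontal lines are the group means. Zbp1 lies between 1.46 and 1.94 CPM in the CrOE libraries and at or above 38.1 CPM in the other libraries, while Mavs lies between 47.1 and 60.0 CPM in all 12.

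The promoters of the genes with different outcomes are shown first, because the core of the interferon-stimulated response element, a site through which interferon raises transcription, lies in some of them and not in others. Each window runs from 250 bases before to 50 bases after the annotated start, 5′ to 3′ on the strand of the gene, from RefSeq on GRCm38.p6. Windows were found for 7 of the 10 genes (Ddx58, Ifih1, Tlr3, Mavs, Eif2ak2, Irf3 and Irf7). The core was searched on both strands as GAAA, any 2 bases, then GAAA, and capitals mark the matches.
Ddx58, chr4:40239776-40240075, minus strand: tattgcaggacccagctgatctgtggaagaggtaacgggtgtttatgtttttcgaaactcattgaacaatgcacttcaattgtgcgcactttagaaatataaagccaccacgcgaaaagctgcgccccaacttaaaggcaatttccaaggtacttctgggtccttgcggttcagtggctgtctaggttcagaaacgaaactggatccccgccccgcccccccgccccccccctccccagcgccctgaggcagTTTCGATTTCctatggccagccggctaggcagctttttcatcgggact
Ifih1, chr2:62646206-62646505, minus strand: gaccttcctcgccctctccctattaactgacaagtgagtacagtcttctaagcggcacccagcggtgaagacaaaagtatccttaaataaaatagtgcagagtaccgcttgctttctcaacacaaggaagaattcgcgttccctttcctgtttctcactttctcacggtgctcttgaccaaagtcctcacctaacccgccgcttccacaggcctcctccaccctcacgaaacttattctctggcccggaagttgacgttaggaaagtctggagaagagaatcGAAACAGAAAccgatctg
Eif2ak2, chr17:78882523-78882822, minus strand: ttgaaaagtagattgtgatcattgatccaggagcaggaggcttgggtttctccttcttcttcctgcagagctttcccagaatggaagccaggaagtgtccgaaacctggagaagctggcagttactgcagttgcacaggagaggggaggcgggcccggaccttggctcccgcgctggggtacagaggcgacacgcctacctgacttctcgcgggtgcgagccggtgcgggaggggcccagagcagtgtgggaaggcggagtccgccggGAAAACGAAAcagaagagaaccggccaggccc
Irf7, chr7:141266375-141266674, minus strand: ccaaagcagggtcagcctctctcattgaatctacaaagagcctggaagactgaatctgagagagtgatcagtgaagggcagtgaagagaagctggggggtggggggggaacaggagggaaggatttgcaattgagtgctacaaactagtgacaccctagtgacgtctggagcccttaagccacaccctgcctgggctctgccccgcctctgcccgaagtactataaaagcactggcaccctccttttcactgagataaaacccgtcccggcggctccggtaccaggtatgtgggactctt
Mavs, chr2:131233813-131234112, plus strand: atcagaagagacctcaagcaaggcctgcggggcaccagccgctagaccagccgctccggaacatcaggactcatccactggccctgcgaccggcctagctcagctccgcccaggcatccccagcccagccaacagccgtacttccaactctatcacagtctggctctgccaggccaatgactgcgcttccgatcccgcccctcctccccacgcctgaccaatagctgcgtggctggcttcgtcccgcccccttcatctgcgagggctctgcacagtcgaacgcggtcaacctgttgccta
The first 3 of these hold 1 match each. In Ddx58 it lies on the reverse strand and begins 3 bases into the transcript, in Ifih1 it begins at base 33 and in Eif2ak2 at base 19. No match was found in the windows of Irf7, Mavs, Irf3 or Tlr3. Only 1 window per gene was searched, for exact matches, although Irf7 and Irf3 have 13 annotated transcripts each and Tlr3 has 9. A site outside the window or with a mismatch would be missed. Across all annotated promoters of the same length, 3.44% of 32851 windows held this motif, or 3.99% of 27025 genes in at least 1 window. The gamma-activated sequence motif TTCNNNGAA, also searched on both strands, was found in 1 of the 7 (Eif2ak2), against 9.55% of genes. The shorter AANNGAAA, which overlaps the first motif, was found in 4 of the 7 (Ddx58, Ifih1, Eif2ak2 and Tlr3), against 26.7% of genes. A match describes letters in a window and is not a measured binding site. Among the genes without a match were the strongly lowered Irf7 and Tlr3 as well as the uncalled Mavs and Irf3.

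Ddx58, which encodes RIG-I, the sensor of short double-stranded and 5′-triphosphate RNA, was among the more abundant of the 10. Its level was 187, 184 and 184 CPM in the untreated libraries and 231, 248 and 256 CPM after shCon EVs. After shCr EVs the libraries held 225, 215 and 278 CPM, and after CrOE EVs 36.7, 40.1 and 47.7 CPM. The untreated values were close together (SD 1.86 CPM), all shCon and shCr libraries stood above them, and all CrOE libraries far below. The log2 fold change from untreated cells was 0.40 ± 0.10 (SE, adjusted p = 0.00688) for shCon and 0.37 ± 0.10 (SE, adjusted p = 0.0110) for shCr EVs. For CrOE EVs Ddx58 fell by 2.16 on the log2 scale (SE 0.11, adjusted p = 8.48e-10), a level 4.46-fold lower.

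Ifih1 encodes MDA5, the sensor of long double-stranded RNA. Its level was 38.9, 35.7 and 34.7 CPM in untreated cells and 53.8, 55.7 and 54.9 CPM after shCon EVs. The shCr libraries held 61.1, 44.0 and 63.2 CPM, and the CrOE libraries 8.44, 9.16 and 10.2 CPM. The groups other than the shCon and shCr pair did not overlap. Ifih1 rose by 0.59 ± 0.11 (log2, SE, adjusted p = 0.00144) after shCon EVs and by 0.62 ± 0.11 (adjusted p = 0.000879) after shCr EVs. After CrOE EVs it fell by 1.97 on the log2 scale (SE 0.13, adjusted p = 1.198e-08), or 3.92-fold. The proportion of RIG-I to MDA5 RNA was similar by mean in the 3 EV groups and somewhat higher in untreated cells. Per kilobase of annotated exon, Ddx58 stood at 5.90 ± 0.290 times Ifih1 in untreated cells (SD, n = 3). After shCon, shCr and CrOE EVs it stood at 5.18 ± 0.210, 5.01 ± 0.709 and 5.16 ± 0.191 times Ifih1. The untreated libraries lay above all shCon and CrOE libraries in this ratio and overlapped the shCr ones.

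Dhx58 encodes LGP2, a helicase without signalling domains that tunes the other helicases. It was at 60.2, 71.2 and 59.6 CPM in untreated cells, 73.7, 80.7 and 83.4 CPM after shCon EVs, and 70.8, 75.6 and 97.7 CPM after shCr EVs. The CrOE libraries held 4.31, 3.69 and 4.72 CPM. The highest untreated library lay above the lowest shCr library, so these groups overlapped, and the CrOE libraries lay far below all others. The rises were small: 0.32 ± 0.12 (log2, SE, adjusted p = 0.0467) after shCon EVs and 0.35 ± 0.12 (adjusted p = 0.0285) after shCr EVs. Both calls were close to the threshold, and leaving out a single library ended the shCon call in 5 of 6 cases and the shCr call in 3 of 6. The log2 fold change then lay between 0.27 and 0.41 for shCon EVs and between 0.20, without shCr replicate 3, and 0.44 for shCr EVs. Without shCon replicate 1, 2 or 3 the adjusted p of the shCon rise was 0.0556, 0.117 and 0.146, and without untreated replicate 1 or 3 it was 0.153 and 0.159. The shCr rise had an adjusted p of 0.107 without untreated replicate 1, 0.119 without untreated replicate 3 and 0.128 without shCr replicate 3. The fall after CrOE EVs was 3.91 on the log2 scale (the difference was -3.91 ± 0.14, SE, adjusted p = 4.96e-11), a level 15-fold lower. That was a larger fall than for the other helicases: per kilobase, Ddx58 stood at 1.36 ± 0.137 times Dhx58 in untreated cells and at 4.56 ± 0.554 times Dhx58 in CrOE cells (SD, n = 3).

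Tlr3, the endosomal receptor for double-stranded RNA, was at 50.7, 44.3 and 46.3 CPM in untreated cells. It was at 78.2, 82.8 and 77.0 CPM after shCon EVs, 82.5, 58.3 and 82.7 CPM after shCr EVs, and 7.80, 9.51 and 9.38 CPM after CrOE EVs. Replicate 2 of the shCr group lay between the untreated libraries and the other shCr and shCon libraries, and untreated cells overlapped no EV group. Tlr3 rose by 0.75 ± 0.12 (log2, SE, adjusted p = 0.000288) after shCon EVs and by 0.66 ± 0.12 (adjusted p = 0.000695) after shCr EVs. It fell by 2.40 on the log2 scale after CrOE EVs (SE 0.13, adjusted p = 2.68e-09), or 5.28-fold. Per kilobase, Tlr3 stood at 2.03 ± 0.0748, 2.27 ± 0.0669 and 2.08 ± 0.0321 times Ifih1 in untreated, shCon and shCr cells (SD, n = 3). In CrOE cells the ratio was lower, at 1.504 ± 0.107, and no CrOE library reached a library of the other groups.

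Zbp1, a sensor of left-handed (Z-form) nucleic acid that can start RIPK3-dependent cell death, had the widest range of the 10. Its level was 42.4, 51.0 and 38.1 CPM in untreated cells. After shCon EVs it was 96.1, 102 and 103 CPM, and after shCr EVs 84.0, 73.6 and 108 CPM. In the CrOE libraries it was 1.46, 1.72 and 1.94 CPM, from 46, 59 and 69 counts. No untreated library overlapped any EV library. Zbp1 rose by 1.196 ± 0.13 (log2, SE, adjusted p = 1.62e-05) after shCon EVs, a 2.29-fold increase, and by 1.02 ± 0.13 (adjusted p = 5.63e-05) after shCr EVs, or 2.02-fold. It was the only 1 of the 10 to rise by 2-fold or more in these comparisons. After CrOE EVs Zbp1 fell by 4.67 on the log2 scale (SE 0.18, adjusted p = 8.45e-11), which put it 25.5-fold below untreated cells. Against shCon EVs the level was 58.5-fold lower and against shCr EVs 51.6-fold lower. Ordered by size of fall between shCon and CrOE EVs, Zbp1 had rank 47 of 14279 genes. Ripk3, the kinase that ZBP1 recruits, fell in all 3 EV groups, unlike Zbp1, which rose after shCon and shCr EVs. After CrOE EVs the fall of Ripk3 was the smaller. Ripk3 was at 52.5 ± 3.43 CPM in untreated cells, 32.8 ± 1.25 CPM after shCon, 29.4 ± 2.09 CPM after shCr and 32.0 ± 1.44 CPM after CrOE EVs (SD, n = 3).

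Eif2ak2, encoding PKR, was at 168, 153 and 164 CPM in untreated cells, 168, 176 and 173 CPM after shCon EVs, and 196, 156 and 195 CPM after shCr EVs. The CrOE libraries held 48.8, 47.5 and 51.2 CPM. The first 3 groups overlapped, and the CrOE libraries stood below all of them. The log2 difference from untreated cells was 0.09 ± 0.08 (SE, adjusted p = 0.384) for shCon and 0.17 ± 0.08 (SE, adjusted p = 0.104) for shCr EVs. Neither was called, with 95% intervals of -0.08 to 0.26 and 0.003 to 0.34. The outcome for shCr EVs turned on replicate 2 of that group, without which the difference was 0.27 with an adjusted p of 0.00292. After CrOE EVs Eif2ak2 fell by 1.72 on the log2 scale (SE 0.08, adjusted p = 6.32e-10), or 3.29-fold, the smallest fall among the 8 genes called.

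The adaptors behaved differently from each other. Mavs, onto which RIG-I and MDA5 converge, was at 50.6, 53.5 and 51.7 CPM in untreated cells, 51.6, 53.8 and 53.5 CPM after shCon EVs, 47.1, 55.5 and 60.0 CPM after shCr EVs, and 49.8, 57.0 and 52.5 CPM after CrOE EVs. All 4 groups overlapped. The log2 differences from untreated cells were 0.03, 0.06 and 0.03, and the 95% intervals of the 3 lay between -0.15 and 0.24. The test across the 4 groups gave an adjusted p of 0.895. Ddx58 changed where Mavs was not called. Per kilobase, Mavs stood at 0.591 ± 0.0212 times Ddx58 in untreated cells and 2.73 ± 0.358 times Ddx58 after CrOE EVs (SD, n = 3).

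Tmem173, encoding STING, was lower in every EV group. It was at 69.0, 71.4 and 69.0 CPM in untreated cells and 36.9, 38.2 and 42.7 CPM after shCon EVs. After shCr EVs it was at 36.5, 36.7 and 35.2 CPM, and after CrOE EVs at 13.4, 15.3 and 15.4 CPM. No EV library reached an untreated one, and the CrOE libraries lay below the other EV libraries. Tmem173 fell by 0.83 on the log2 scale after shCon EVs (SE 0.07, adjusted p = 9.96e-07), by 0.95 after shCr EVs (SE 0.07, adjusted p = 2.86e-07) and by 2.25 after CrOE EVs (SE 0.07, adjusted p = 1.29e-11). These are levels 1.78-fold, 1.93-fold and 4.75-fold lower. It was the only 1 of the 10 called lower after shCon or shCr EVs. The gene for cGAS, Mb21d1, which makes the ligand of STING, was a low-abundance transcript at 6.89 ± 0.491 CPM in untreated cells, 4.78 ± 0.301 after shCon, 4.08 ± 0.160 after shCr and 15.1 ± 0.736 CPM after CrOE EVs (SD, n = 3). Mb21d1 fell by 0.53 and 0.76 on the log2 scale after shCon and shCr EVs (adjusted p = 0.000527 and 2.81e-05). After CrOE EVs it rose by 1.13 (adjusted p = 4.87e-08), the direction opposite to Tmem173.

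**Figure D2:**
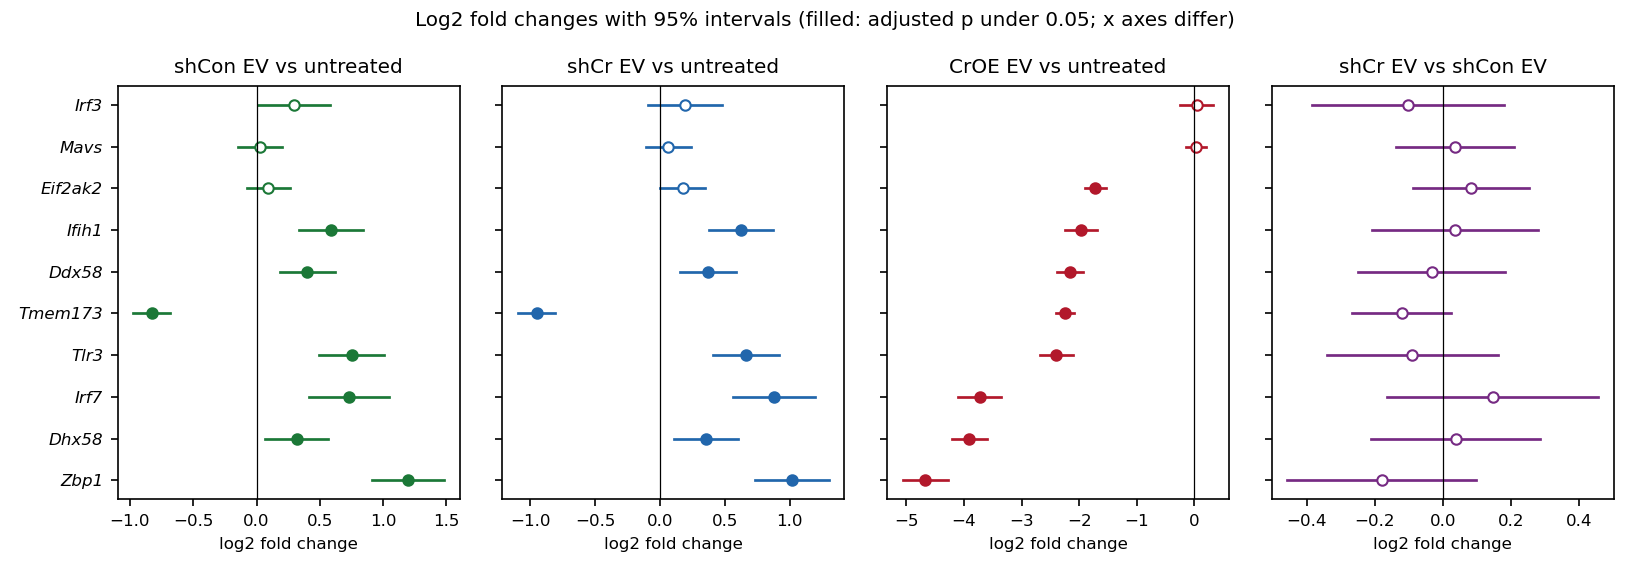
Log2 fold change of the 10 genes for each EV group against untreated cells and for shCr against shCon EVs, with 95% intervals from the edgeR model (x axes differ, filled points were called). After shCon and shCr EVs the changes lie between -0.95 and 1.196, and after CrOE EVs 8 of the 10 lie between -4.67 and -1.72 against untreated cells while Mavs and Irf3 lie near 0.

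Irf3, the constitutively expressed factor that the adaptors activate first, was, with Mavs, called in no pairwise comparison. It was at 19.4, 22.3 and 18.5 CPM in untreated cells, 23.4, 23.2 and 27.3 CPM after shCon EVs, 17.8, 24.6 and 26.2 CPM after shCr EVs, and 20.5, 19.0 and 22.5 CPM after CrOE EVs. The shCon libraries lay above the untreated ones without overlap, as 26.6% of all genes did, and the other groups overlapped untreated cells. The log2 differences from untreated cells were 0.30 ± 0.13 (SE, adjusted p = 0.0967), 0.19 ± 0.13 (adjusted p = 0.278) and 0.04 ± 0.13 (adjusted p = 0.778). A model of the shCon and untreated libraries alone gave an adjusted p of 0.0256 for the first, and the shCr difference was 0.34 with an adjusted p of 0.0136 without shCr replicate 1. About 2.56% of Irf3 exon bases overlap Bcl2l12 on the opposite strand, and the sources used here do not say whether reads were counted by strand.

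Irf7, the interferon-induced factor that amplifies type I interferon production, moved widely. It was at 72.8, 96.2 and 74.6 CPM in untreated cells, 120.1, 145 and 139 CPM after shCon EVs, and 141, 127 and 179 CPM after shCr EVs. In the CrOE libraries it was at 4.95, 6.28 and 7.10 CPM. The groups treated with shCon and shCr EVs lay above untreated cells without overlap and the CrOE group far below. Irf7 rose by 0.73 ± 0.14 (log2, SE, adjusted p = 0.001601) and 0.88 ± 0.14 (adjusted p = 0.000401) after shCon and shCr EVs. After CrOE EVs it fell by 3.73 on the log2 scale (SE 0.17, adjusted p = 5.04e-10), or 13.2-fold. The balance of the IRFs shifted accordingly. Per kilobase, Irf7 stood at 3.68 ± 0.262 times Irf3 in untreated cells, 5.005 ± 0.588 after shCon, 6.05 ± 1.29 after shCr and 0.270 ± 0.0435 after CrOE EVs (SD, n = 3).

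Knockdown of CRIPTO in the donor cells left no called difference in these genes, a count near the small share over all genes. Between shCr and shCon EVs, 0 of the 10 were called with edgeR (quasi-likelihood test), 0 had an unadjusted p under 0.05 and 0 were called by DESeq2, where edgeR called 5.22% of all genes higher and 3.51% lower, 8.73% in all. The log2 differences ran from -0.18 for Zbp1 to 0.15 for Irf7. Their 95% intervals all lay within -0.46 and 0.46, so a difference larger than that was outside the interval for each gene, and smaller ones were not resolved. Tmem173 was the only 1 of the 10 whose libraries did not overlap between these groups, with all 3 shCr libraries lower, as for 12.5% of all genes, while 15.5% lay wholly higher. Its log2 difference was -0.12 (95% interval -0.27 to 0.02, adjusted p = 0.319).

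Set against the other EV groups, the CrOE libraries were lower in the same 8 genes. Of the 10, 8 were called lower against shCon EVs, where 36.1% of all genes were lower and 72.6% were called, and 8 against shCr EVs, where 37.0% were lower and 73.9% were called. CrOE libraries lay wholly below the shCon libraries for 9 of the 10, Irf3 added to those called, and wholly below the shCr libraries for 8. Over all genes, 39.8% lay wholly below and 40.7% wholly above the shCon libraries, and 36.9% below and 37.1% above the shCr libraries. The median log2 fold change of the 10 was -2.56 in both comparisons, against 0.01 and 0.01 over all genes. Falls against shCon EVs ran from 1.42 on the log2 scale for Tmem173, a difference of -1.42 ± 0.07 (SE), to -5.87 ± 0.18 for Zbp1. These comparisons share their CrOE libraries with each other and with the comparison to untreated cells.

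Ranked by level per kilobase, Eif2ak2 led in untreated cells at 31.7 ± 1.52 CPM per kb (SD, n = 3). It was followed by Ddx58 (26.3 CPM per kb), Tmem173 (25.5), Irf7 (21.5), Dhx58 (19.5), Mavs (15.5), Zbp1 (12.4), Tlr3 (9.04), Irf3 (5.83) and Ifih1 (4.46). Tmem173 and Irf7, and Irf7 and Dhx58, overlapped between libraries, and the other neighbours did not. After shCon and shCr EVs Irf7 stood first by mean, at 35.7 ± 3.45 and 39.5 ± 7.14 CPM per kb, with Ddx58 and Eif2ak2 next and overlapping it. After CrOE EVs the order was headed by Mavs at 15.9 ± 1.09 CPM per kb, then Eif2ak2 (9.62), Irf3 (6.002), Ddx58 (5.88) and Tmem173 (5.35), of which the last 3 overlapped as neighbours. Zbp1 was last at 0.483 ± 0.0679 CPM per kb. Lengths were those of the annotated exons joined, so the ranking does not account for which isoforms the cells used.

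**Figure D3:**
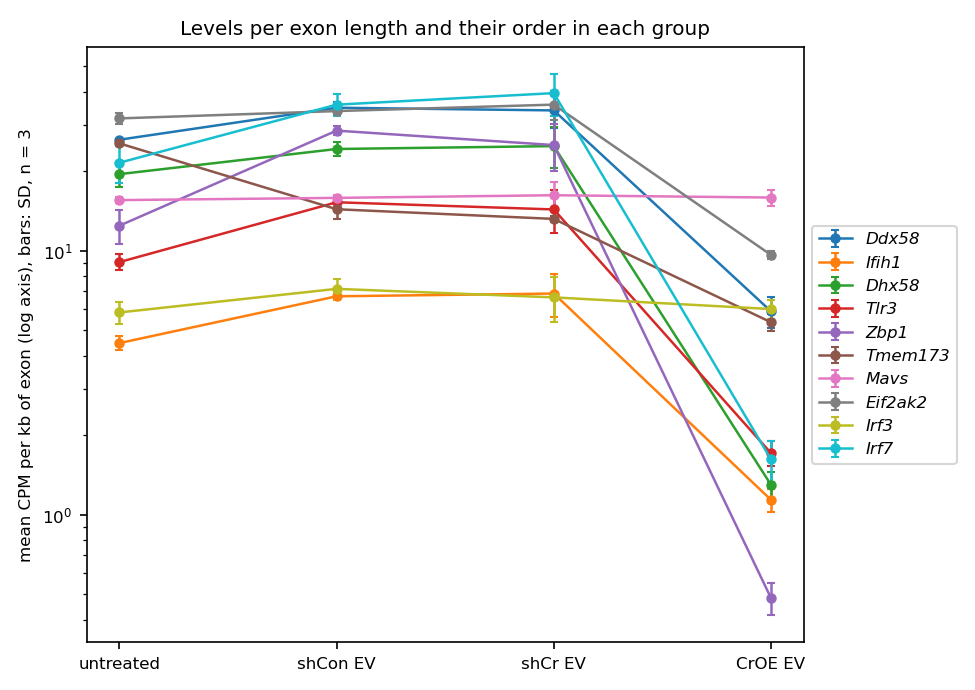
Level per kilobase of annotated exon (CPM per kb, log axis) of the 10 genes in each group, as the mean of 3 libraries with the SD as bars. Lines join the values of a gene across groups, which have no order. Mavs stands sixth in untreated cells at 15.5 CPM per kb and first after CrOE EVs at 15.9 CPM per kb.

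Spread between libraries was uneven. The median coefficient of variation over the 10 genes was 6.5% in untreated, 4.48% in shCon, 17.9% in shCr and 10.3% in CrOE libraries. Replicate 3 of the shCr group was the highest of its group for 8 of the 10 genes (all but Tmem173 and Eif2ak2), and replicate 2 the lowest for 6 (Ddx58, Ifih1, Tlr3, Zbp1, Eif2ak2 and Irf7). Replicate 3 of the CrOE group was also the highest of its group for 8. In these 2 groups most of the genes were thus highest in the same library, whereas Tmem173 was lowest in replicate 3 of the shCr group. In the other groups the highest library was divided. It was replicate 1 for 4 genes and replicate 2 for 6 in untreated cells, and replicate 2 for 5 and replicate 3 for 5 in shCon cells. Replicate 1 of the shCon group was the lowest for 8. The matching shares over all genes were not computed.

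**Figure D4:**
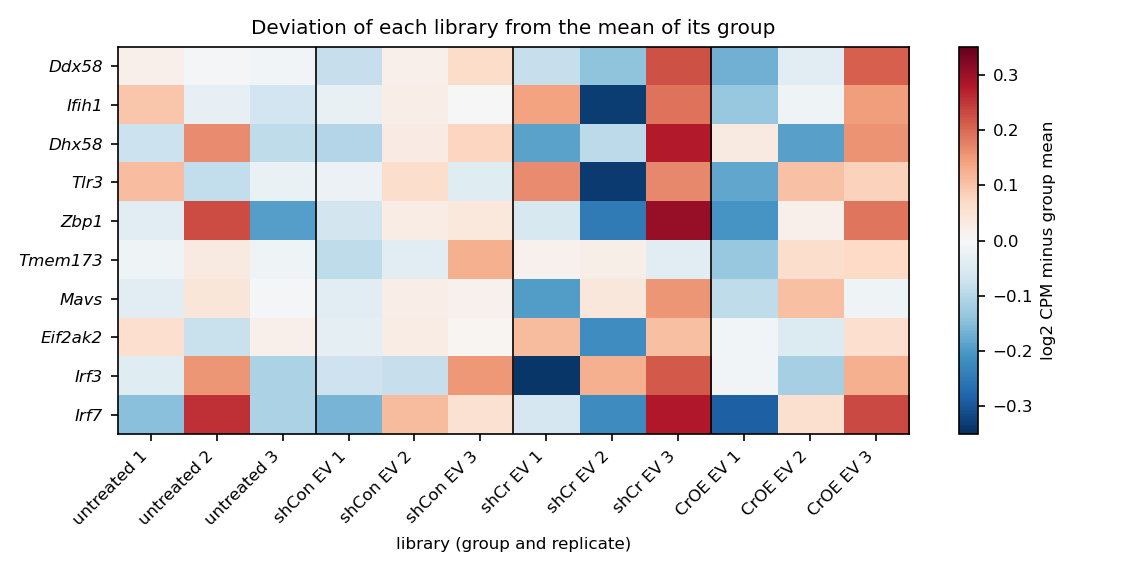
Heat map of the deviation of each library (columns) from the mean of its group in log2 CPM, for the 10 genes (rows), red above and blue below the mean. In the shCr group replicate 3 is the highest for 8 of the 10 genes and replicate 2 the lowest for 6.

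The other genes of the pathway were taken from lists by role. Their counts stand beside the shares over all genes: 18.0% higher and 20.2% lower after shCon, 18.4% and 18.8% after shCr, and 36.7% and 37.0% after CrOE EVs. Several of the counts lie near these shares. Of 25 other sensors tested, 7 rose and 4 fell after shCon EVs, and 8 rose and 8 fell after shCr EVs. Oas2, an oligoadenylate synthetase activated by double-stranded RNA, rose most, from 14.2 ± 2.68 to 54.6 ± 3.71 CPM after shCon EVs (log2 1.94, adjusted p = 1.50e-05) and to 45.9 ± 16.6 CPM after shCr EVs (log2 1.69, adjusted p = 4.15e-05). The helicase gene Ddx60 rose by 1.23 after shCon EVs, and the DNA-binding Ifi205 by 1.40 after shCr EVs, both on the log2 scale. After CrOE EVs 14 of the 25 rose and 8 fell, with a median log2 fold change of 0.24. The RNA helicase genes Ddx21 and Dhx33 rose by 1.74 and 1.34, whereas Oas2 fell by 4.38 and Oasl2 by 3.41 on the log2 scale.

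Of 24 tested genes for relay adaptors and kinases, 7 rose and 1 fell after shCon EVs, 6 rose and 1 fell after shCr EVs, and 10 rose and 10 fell after CrOE EVs. The CrOE counts lie near the shares over all genes. The kinase gene Ikbke, for a relative of TBK1, rose by 0.46 and 0.49 on the log2 scale after shCon and shCr EVs (adjusted p = 0.0264 and 0.0185), and Ripk3 was the gene that fell in both. After CrOE EVs Traf6, for a ubiquitin ligase of the Toll-like receptor route, rose by 1.17. Tomm70a, for a mitochondrial import receptor that binds MAVS, rose by 0.93. Unc93b1, whose product carries TLR3 to endosomes, fell by 2.37 on the log2 scale (adjusted p = 1.47e-09), from 19.0 ± 1.39 to 3.68 ± 0.735 CPM. Mlkl, for the executor of necroptosis, fell by 1.44.

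Of 21 tested regulators of the sensors, 5 rose and 3 fell after shCon, 7 rose and 3 fell after shCr, and 7 rose and 9 fell after CrOE EVs. The shCon and CrOE counts lie near the shares over all genes. Nlrc5 and Usp18, for a NOD-like receptor protein and the protease that removes ISG15, rose by 0.72 and 0.65 after shCon EVs and fell by 1.62 and 2.45 after CrOE EVs, on the log2 scale. Atg12, for a ubiquitin-like autophagy protein, fell by 0.59 after shCon EVs. Of 15 genes for nucleic-acid clearance, 3 rose and 4 fell after shCon, 4 rose and 3 fell after shCr, and 1 rose and 11 fell after CrOE EVs. For these genes the shCon and shCr counts lie near the shares over all genes. The RNase H2 subunit gene Rnaseh2c fell by 0.90 and 0.57 after shCon and shCr EVs. After CrOE EVs Enpp1, for the enzyme that degrades the STING ligand, fell by 4.63 on the log2 scale, from 13.5 ± 2.58 to 0.543 ± 0.0925 CPM.

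Interferon itself was near the detection limit. Ifnb1 held 3, 4 and 5 counts in untreated libraries, 13, 3 and 9 after shCon, 5, 4 and 7 after shCr, and 4, 8 and 7 after CrOE EVs, and was not tested. Counts this low leave small differences in Ifnb1 between groups unresolved. Of 12 tested genes of interferon production and response, 3 rose and 6 fell after shCon, 3 rose and 4 fell after shCr, and 1 rose and 10 fell after CrOE EVs. The receptor subunit gene Ifnar1 rose slightly after CrOE EVs, by 0.15 on the log2 scale (adjusted p = 0.0220). Socs3, for a feedback inhibitor of cytokine signalling, fell in all 3 EV groups, with log2 fold changes of -1.53, -1.597 and -4.30.

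Of 24 interferon-induced genes outside the sensing pathway, 21 rose and 2 fell after shCon, 21 rose and 1 fell after shCr, and 1 rose and 22 fell after CrOE EVs. Their median log2 fold changes were 0.70, 0.88 and -2.61. Over all genes, 18.0% rose and 20.2% fell after shCon, 18.4% and 18.8% after shCr, and 36.7% and 37.0% after CrOE EVs. Ifit3 rose by 1.299 and 1.63 and fell by 4.84 on the log2 scale. The genes called the other way were Ifi27 (log2 -1.08 after shCon and -1.05 after shCr EVs), Ifitm3 (-0.38 after shCon EVs) and Ccl5 (0.29 after CrOE EVs). In the eIF2 arm in which PKR acts, 4 of 13 tested genes rose and 2 fell after shCon EVs. After shCr EVs 6 rose and 0 fell. After CrOE EVs 9 rose and 1 fell, with Ppp1r15a at 28.9 ± 3.63 CPM in untreated and 488 ± 14.1 CPM in CrOE cells (SD, n = 3). Trib3, a target of the same arm, rose in all 3 comparisons, by 1.87, 1.16 and 3.65. The other eIF2α kinase genes differed after CrOE EVs. Eif2ak4 fell by 0.69 on the log2 scale, Eif2ak3 rose by 0.95 (adjusted p = 6.94e-10), from 40.3 ± 0.308 to 77.7 ± 0.855 CPM, and Eif2ak1 was not called (0.09, adjusted p = 0.137). Eif2ak1 and Eif2ak3 were added to complete the set after their values were seen.

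**Figure D5:**
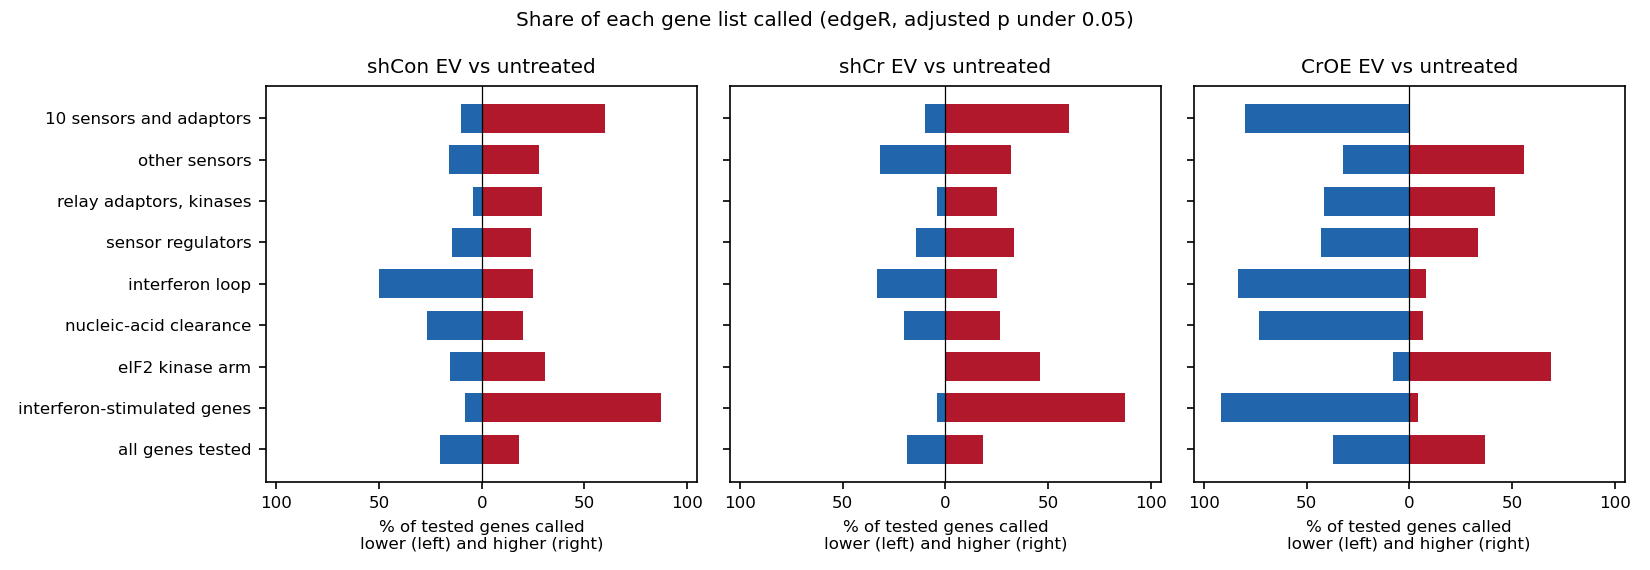
Percent of tested genes called higher (red, right) and lower (blue, left) in each list, for shCon, shCr and CrOE EVs against untreated cells, beside the share over all genes tested. After CrOE EVs 8 of the 10 sensors and adaptors and 22 of 24 interferon-induced genes are called lower, and 9 of 13 genes of the eIF2 arm are called higher.

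Likeness of pattern was described by Pearson's r of log2 CPM over the 12 libraries, among the 11564 genes whose mean log2 CPM reached 1 or more. The libraries fall into groups, with CrOE apart, so r describes shared group differences and carries no test. The closest genes were Lgals3bp for Ddx58 (r = 0.998), Tlr3 for Ifih1 and Ifih1 for Tlr3 (r = 0.998), Tmem198b for Dhx58 (r = 0.999), Sp100 for both Zbp1 and Irf7 (r = 0.999 each), Socs3 for Tmem173 (r = 0.996) and BC023105 for Eif2ak2 (r = 0.998). Mavs and Irf3 had looser matches, Tbc1d22b (r = 0.868) and Dtx3 (r = 0.969).

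Cell-type markers moved with the CrOE group too. The summed level of the 10 fibroblast markers was 24835 to 25165 CPM after shCon and 16048 to 17926 CPM after shCr EVs. After CrOE EVs it was 8513 to 8891 CPM, and 9 of the 10 were called lower, against 37.0% of all genes. The sum hides mixed directions: 3 were called higher and 4 lower after shCon, and 1 higher and 6 lower after shCr EVs. After shCon EVs Col1a1 rose from 4535 to 6557 and Fn1 from 4147 to 7237 CPM, while S100a4 fell from 965 to 401 CPM. The summed level of 9 macrophage and dendritic markers was 129 to 141 CPM in untreated, 123 to 134 in shCon, 174 to 246 in shCr and 32.7 to 38.5 CPM in CrOE cells. Most of it was Cd14 and Lyz2. Cd14 was at 78.3 ± 7.87, 41.7 ± 1.23, 48.1 ± 4.67 and 30.5 ± 3.78 CPM in untreated, shCon, shCr and CrOE cells, and Lyz2 at 46.9 ± 4.86, 78.0 ± 5.98, 146 ± 34.97 and 1.25 ± 0.138 CPM (SD, n = 3). Cd68 held 90 to 238 counts per library, while Adgre1 held at most 1 count and Ptprc at most 7 counts in any library. The 7 lymphocyte markers summed to at most 0.742 CPM in any library and the 8 epithelial markers to at most 3.43 CPM. The epithelial sum was 1.17 to 1.99 CPM in untreated and 2.39 to 3.43 CPM in CrOE cells. Of the 3 epithelial markers tested, 2 were called higher and 0 lower after CrOE EVs, against 36.7% and 37.0% of all genes. Cldn4 held 0 counts in each untreated library and 40, 40 and 36 counts in the CrOE libraries. The 5 endothelial markers summed to 2.21 to 3.04 CPM in untreated and 17.4 to 20.2 CPM in CrOE cells, most of it Vwf at 16.02 ± 1.64 CPM. The part of these shifts in the levels of the sensor genes was not tested. In bulk RNA, fewer cells expressing a gene and less of its RNA per cell cannot be told apart.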

How the data were processed

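Bulk RNA from 12 libraries of 3T3 cells was analysed in 4 groups of 3, assigned from the sample titles. The authors deposited a table of estimated counts per gene symbol, unscaled between libraries. It was taken as such because 39.8% of its values were not whole numbers. Per the submitters' processing notes, featureCounts and mm39 were used, with no role given. The aligner, the annotation and the use of strand in counting are not given in the sources used here. Libraries were directional and poly(A)-selected, per the labels' protocols. In the table, 27 rows carried a date in place of a symbol. Their share of a library was 0.259% or less, and 1 of the 22 genes on the regulator list was not matched by symbol and not analysed here.

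Values were rounded to whole numbers, although the design had assumed raw counts. filterByExpr kept 14279 genes. After TMM scaling they were tested with edgeR 4.0.16 in R 4.3.3 by glmQLFit and glmQLFTest, on all 12 libraries with 1 mean per group (8 residual degrees of freedom). Calls were made at an adjusted p under 0.05 (Benjamini-Hochberg) without a fold threshold. Standard errors were derived from the F statistic. The test was tried on counts simulated with the spread that edgeR itself had fitted. It recovered 88 of 100 genes changed 1.5-fold and 100 of 100 changed 2-fold, with 7 false calls among 13760 genes. DESeq2 made 27 false calls there. As the simulation took over the fitted spread, it cannot show whether these libraries depart from that model. The floor of 3 counts covers counting error only, as PCR copies were not separated.

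The members and gene lists were chosen with earlier results of these data known. All 10 members are named. Each list names, per comparison with untreated cells, up to the 2 highest and 2 lowest fold changes among tested genes whose mean log2 CPM reached 1, with Ifnb1 and Mb21d1 named always. Some genes that this rule chose enter the counts of their list but are not reported here. Exon lengths and overlaps came from GENCODE M21 and promoters from RefSeq, both on GRCm38. That differs from the build named by the submitters, so no coordinate refers to the count table. Exons of Dhx58, Tlr3, Eif2ak2, Irf3 and Irf7 overlap opposite-strand genes over 4.31%, 7.32%, 4.32%, 2.56% and 1.19% of their bases, and 4.08% of 31-base stretches of Eif2ak2 occur in other genes. Alternatives were other size factors, DESeq2 1.42.0, other count filters, a replicate block, models of 2 groups, a 2-fold threshold and leaving out each library.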

Additional observations from a re-analysis of the deposited data

How the results depend on the processing

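Of 780 fold changes recomputed under the alternatives other than the fold threshold, 765 stayed on their side of the threshold, 10 lost a call and 5 gained one. No called fold change changed sign, while uncalled differences near 0 did, those of Mavs in all 6 comparisons among them. With a fold change of at least 2 required, 1 of the 10 genes stayed called after shCon EVs and 1 after shCr EVs (Zbp1 in each). The 8 falls after CrOE EVs stayed called. The shares over all genes were not computed for this threshold or for the runs that left out a library. Log2 fold changes over all genes were widely spread after CrOE EVs, with an SD of 1.45. Leaving out 1 library at a time gave 6 to 7 calls for shCon and 6 to 8 for shCr EVs against untreated cells, 8 for CrOE EVs against untreated cells or shCon EVs, 8 to 9 against shCr EVs, 0 between shCr and shCon EVs, and 8 to 9 across the 4 groups. The lost calls were all rises of Dhx58, and the gained ones were Irf3 and Eif2ak2. The rise of Dhx58 after shCon EVs had an adjusted p of 0.0584 with total counts alone as the scale, and its rise after shCr EVs one of 0.102 in a model of only those groups. Irf3 was lower after CrOE than after shCon EVs in a model of only those groups (adjusted p = 0.00713), and lower than after shCr EVs without shCr replicate 1 (adjusted p = 0.0138). The cause was not tested. Replicate numbers did not pair the libraries: deviations of same-numbered libraries correlated at -0.20 to 0.32, and 5 of 12 libraries correlated best with their own number. With the replicate number as a block, the counts of called genes were 7, 7 and 8 against untreated cells, 0 between shCr and shCon EVs, and 8 and 8 for CrOE against the other EVs, as without it. Of all 14279 genes, that model called 5691, 5529 and 10657 against untreated cells. It called 1281 between shCr and shCon EVs, and 10511 and 10677 for CrOE against the other EVs. Depth limits Ifnb1, and the number of libraries limits small differences in Irf3, Eif2ak2 and Dhx58.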
